A study of Homo sapiens with 6 samples.

Results

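The extracellular matrix genes examined here are the collagen chains, the laminin chains and 8 further matrix proteins (FN1, LUM, TGFBI, SPARC, NID1, NID2, HSPG2 and AGRN), chosen by gene symbol. Those described number 61 of the 22496 symbols found in at least 1 library: 42 collagens, 11 laminins and the 8 others. The cells are LoVo, an established line from a human colon adenocarcinoma, and their poly-A RNA was sequenced in 6 libraries. By genotype label 3 are non-target controls and 3 are SHARPIN knockout, SHARPIN being part of the complex that builds linear ubiquitin chains. The labels name no treatment and no clone, and do not say how the knockout was made or whether the replicates were grown separately. The p-values therefore speak of the spread among these libraries, part or all of which may be technical. The question of the series is what the knockout of SHARPIN does to gene expression.

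Collagens are trimers of alpha chains. Some form the fibrils of connective tissue, others the sheet of the basement membrane, and a few cross the plasma membrane. Laminins are trimers of an alpha, a beta and a gamma chain, and they build the basement membrane on which gut epithelium sits. Epithelial cells make many laminin chains themselves, while most fibrillar collagen in the gut comes from fibroblasts. Values are FPKM, fragments per kilobase of transcript scaled to the mapped fragments of the library, so levels can be compared between genes.

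In the order of replicates 1, 2 and 3, which holds for all values below, SHARPIN transcript stood at 11.9, 13.9 and 12.9 FPKM in non-target and at 7.55, 11.9 and 18.05 FPKM in knockout. The groups overlapped, and the difference did not pass (log2 fold change -0.12 ± 0.26, SE, limma, adjusted p = 0.827). A transcript level does not check a small disruption of the reading frame, and knockout replicate 3 held more than any non-target library, so the groups are called non-target and knockout here as labelled. Each library rests on an estimated 21100000 to 22500000 fragments. Of 10 colon epithelial markers, EPCAM and CDX2 were present in every library (132 to 198 and 16.0 to 24.6 FPKM). Like CDH1, KRT8 and KRT18, they did not pass. CDH17, GPA33, LGALS4, VIL1 and CDX1 were lower in knockout (limma, adjusted p up to 0.00142). The mean of CDH17 went from 57.3 to 5.78 FPKM, of GPA33 from 46.7 to 1.48 and of LGALS4 from 42.4 to 2.26. The mean of VIL1 went from 2.39 to 0.51 FPKM and of CDX1 from 1.37 to 0.0863. Both replicate 1 libraries stood apart from the other libraries of their groups in the matrix genes, as described with each result below. Endothelial markers were under 1 FPKM throughout, as were the leukocyte markers PTPRC and CD14, with CD3E and MS4A1 at 0. The endothelial marker PECAM1 was lower in every knockout library. It stood at 0.533, 0.552 and 0.616 FPKM in non-target and 0.01, 0.011 and 0.062 FPKM in knockout, too low for the test. The other endothelial markers stayed under 0.1 FPKM. CD68, also made by other cells, was at 18.96 to 35.0 FPKM. LYZ, lysozyme, which myeloid cells and gut epithelium make, moved with genotype, at 66.3, 49.6 and 45.6 FPKM in non-target and 3.29, 1.34 and 1.66 FPKM in knockout (log2 fold change -4.18, limma, adjusted p = 2.61e-05), and its part in the results was not tested.

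The promoter sequences of 3 genes that changed, and the stretch between a pair of genes whose levels differed widely, are shown first, since the values below refer to them. They come from RefSeq windows on GRCh38.p14, in which 46 of the 61 genes had an entry. Each of the first 3 runs covers the 250 bases before the annotated start site, on the strand of the gene. Capitals mark motifs searched on both strands. The GC box is spelled GGGCGG. The TATA box is spelled TATAAA. The AP-1 site is spelled TGANTCA, where N is any base.
LAMA4, chr6:112254568-112254817, minus strand: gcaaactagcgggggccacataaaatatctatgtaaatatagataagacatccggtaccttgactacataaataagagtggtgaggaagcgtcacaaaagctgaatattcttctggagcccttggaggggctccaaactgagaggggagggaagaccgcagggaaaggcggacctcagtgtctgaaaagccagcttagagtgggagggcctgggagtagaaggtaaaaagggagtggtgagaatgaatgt
TGFBI, chr5:136028738-136028987, plus strand: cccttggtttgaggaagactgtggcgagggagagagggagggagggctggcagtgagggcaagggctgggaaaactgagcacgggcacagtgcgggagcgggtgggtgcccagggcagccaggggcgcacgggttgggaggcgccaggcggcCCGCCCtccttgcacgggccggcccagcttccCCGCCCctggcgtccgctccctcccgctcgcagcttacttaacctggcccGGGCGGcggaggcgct
COL13A1, chr10:69801656-69801905, plus strand: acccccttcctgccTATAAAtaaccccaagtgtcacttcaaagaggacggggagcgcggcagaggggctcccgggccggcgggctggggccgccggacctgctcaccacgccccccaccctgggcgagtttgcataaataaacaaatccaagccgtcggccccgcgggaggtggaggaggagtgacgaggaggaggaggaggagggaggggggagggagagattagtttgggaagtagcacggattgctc
COL4A1 to COL4A2, chr13:110307158-110307283, plus strand: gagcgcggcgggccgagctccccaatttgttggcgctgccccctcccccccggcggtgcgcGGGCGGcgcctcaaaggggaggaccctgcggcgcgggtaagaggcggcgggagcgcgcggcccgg

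The 3 promoters differ in make-up. The LAMA4 window held 5 CpG dinucleotides and none of these motifs, the TGFBI window 20 CpG and 3 GC boxes, and the COL13A1 window 16 CpG, 1 TATA box and no GC box. Over all 35116 windows of the same length the median was 11 CpG. Of those windows 42.6% held a GC box, 10.7% a TATA box and 6.57% an AP-1 site. A match is a run of letters, not a bound site. The fourth run lies between the start sites of COL4A1, which is read leftwards, and COL4A2, which is read rightwards, with 126 bases between them.

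Of the 61 genes, 19 reached 1 FPKM in at least 3 of 6 libraries and were tested: 6 collagens, 8 laminins and 5 of the others. The remaining 42 were low or undetected in most libraries. Of these, 34 were under 1 FPKM in every library, and 20 of them under 0.1 FPKM. Among these tested genes 3 rose in knockout (COL6A1, COL13A1 and COL18A1) and 3 fell (LUM, LAMA4 and TGFBI), 6 of 19 in all (limma, adjusted p below 0.05), where 12.2% of the 13092 genes tested were called, 6.26% as higher and 5.93% as lower. The median log2 fold change was 0.12 over the 19 genes and 0.02 over all tested genes. Without knockout replicate 1 it was -0.17 over the 19 genes. Non-target replicates 2 and 3 were nearly alike (Pearson r = 0.997 across tested genes, which are not independent). Averaged and counted as 1 sample they left 3 of these matrix genes past the threshold: LUM, LAMA4 and COL6A1. LUM and LAMA4 reached 1 FPKM in the non-target libraries only, so they could enter the test only by differing.

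**Figure D1:**
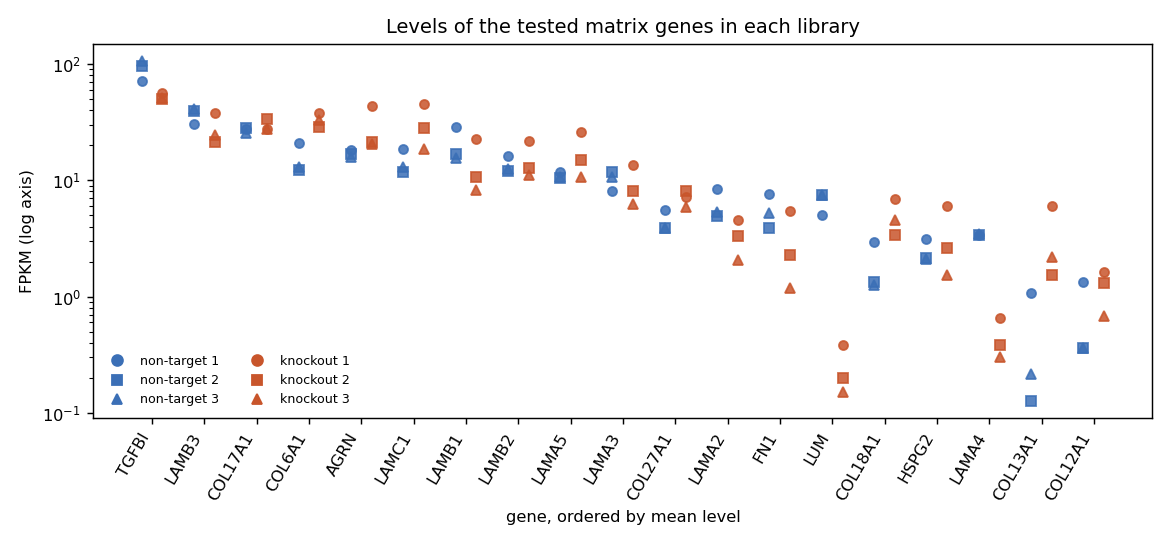
FPKM (log axis) of the 19 tested matrix genes in each library, ordered by mean level, with non-target in blue, knockout in orange and a marker shape per replicate number. TGFBI is the highest, at 50.1 to 106 FPKM, and the 3 knockout values of LUM and of LAMA4 lie far below all their non-target values.

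TGFBI, a secreted protein that binds collagens and integrins, was the most abundant of the matrix genes. It lies at chr5:135364677-135399507 (GRCh37, as are all gene spans below). It stood at 71.6, 96.2 and 106 FPKM in non-target and at 56.4, 50.1 and 50.8 FPKM in knockout. Non-target replicate 1 was the lowest of its group and lay nearest to the knockout libraries, and the groups did not overlap. TGFBI fell, by limma, with a log2 fold change of -0.77 ± 0.19 (SE; adjusted p = 0.0245). It did not pass without non-target replicate 2 or 3 or without knockout replicate 2 or 3 (adjusted p up to 0.1503).

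LUM encodes lumican, a small leucine-rich proteoglycan that binds collagen fibrils (chr12:91496406-91505271). It stood at 5.03, 7.52 and 7.45 FPKM in non-target and at 0.385, 0.199 and 0.151 FPKM in knockout. Every knockout library was far under the lowest non-target library. By limma the log2 fold change was -2.61 ± 0.19 (SE; adjusted p = 5.83e-05), and LUM still passed when any 1 library was left out (highest adjusted p 0.00270). Those fits kept the set of tested genes as chosen on all 6 libraries. LUM entered that set through its non-target libraries only, so they do not check its entry.

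The other proteins of this group did not pass. FN1, fibronectin, stood at 7.67, 3.89 and 5.20 FPKM in non-target and 5.43, 2.26 and 1.18 FPKM in knockout (adjusted p = 0.191). AGRN, agrin, and HSPG2, perlecan, are heparan sulfate proteoglycans of basement membranes. AGRN stood at 18.2, 16.7 and 15.9 FPKM in non-target and 43.3, 21.3 and 20.5 FPKM in knockout (adjusted p = 0.174). Its groups did not overlap, but knockout replicate 1 was far above the other knockout libraries. HSPG2 stood at 3.10, 2.13 and 2.11 FPKM in non-target and 6.06, 2.60 and 1.53 FPKM in knockout (adjusted p = 0.721), with the knockout values on both sides of the non-target ones. The nidogens, which link laminin to type IV collagen, were low: NID2 ran from 0.158 to 0.502 FPKM and NID1 from 0 to 0.081 FPKM over the 6 libraries.

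Of the 8 tested laminin chains described here, 1 fell and 7 did not pass, and their median log2 fold change was -0.30. LAMB3 and LAMA3 are chains of the laminin of hemidesmosomes, the anchors of epithelial cells. LAMB3 was the most abundant laminin chain, at 30.2, 39.6 and 40.6 FPKM in non-target and 37.5, 21.4 and 24.6 FPKM in knockout (adjusted p = 0.293). LAMA3 stood at 8.15, 11.9 and 10.7 FPKM in non-target and 13.4, 8.16 and 6.26 FPKM in knockout (adjusted p = 0.729). In both genes replicate 1 went the other way from replicates 2 and 3. Its log2 difference between knockout and non-target was 0.30 for LAMB3, against -0.86 and -0.70 in the replicate 2 and 3 pairs, and 0.65 for LAMA3, against -0.49 and -0.68. Without both replicate 1 libraries, an alternative chosen after seeing the data, LAMB3 was lower in knockout (log2 fold change -0.78, limma, adjusted p = 0.0144). The only controls of that fit were non-target replicates 2 and 3, which were nearly alike.

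LAMC1, the gamma chain of many laminins, stood at 18.6, 11.7 and 13.1 FPKM in non-target and at 44.8, 28.2 and 18.5 FPKM in knockout. The highest non-target value and the lowest knockout value nearly coincided, and LAMC1 did not pass (log2 fold change 0.97 ± 0.30, SE, limma, adjusted p = 0.0680). It did pass without knockout replicate 3 (adjusted p = 0.0308). LAMB1, a beta chain that joins LAMC1, stood at 28.9, 16.7 and 15.7 FPKM in non-target and 22.6, 10.7 and 8.17 FPKM in knockout (log2 fold change -0.60, adjusted p = 0.329). The ratio of LAMC1 to LAMB1 was 0.644, 0.701 and 0.837 in non-target and 1.98, 2.64 and 2.27 in knockout (two-sided exact permutation test p = 0.10, the smallest that 3 against 3 libraries can give). LAMC1 was thus below LAMB1 in each non-target library and above it in each knockout library. A ratio within a library shows unequal change of the pair, not which chain changed. The pair was picked with results of these data known. The other chain ratios taken gave the same p by that test, so the p is not particular to this pair.

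**Figure D2:**
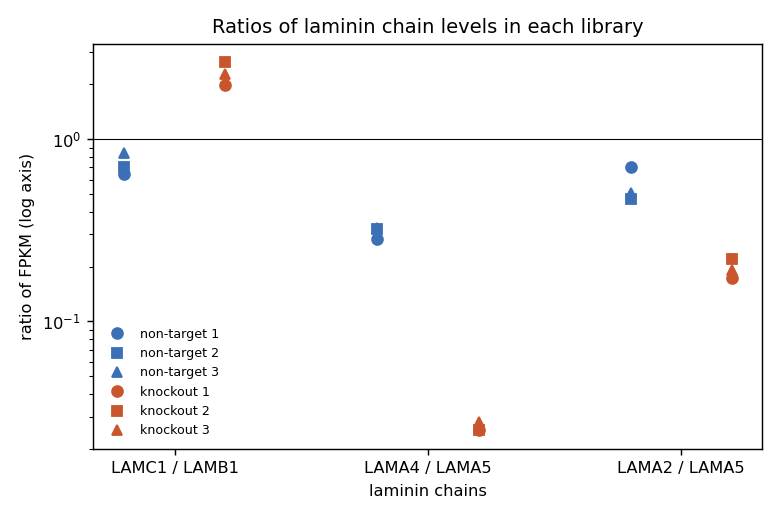
Ratio of FPKM between laminin chains (log axis) in each library, with non-target in blue, knockout in orange and a marker shape per replicate number. The LAMC1 to LAMB1 ratio lies under 1 in the 3 non-target libraries and over 1 in the 3 knockout libraries, and the LAMA4 to LAMA5 ratio is 0.284 to 0.325 in non-target and 0.0252 to 0.0280 in knockout.

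The chain that fell was LAMA4, the alpha chain of laminins in vessel walls, fat and muscle (chr6:112429134-112576141). It stood at 3.35, 3.35 and 3.46 FPKM in non-target and 0.658, 0.381 and 0.301 FPKM in knockout. The non-target libraries were nearly equal and the knockout libraries all far lower. By limma its log2 fold change was -1.61 ± 0.16 (SE; adjusted p = 0.000193), and it still passed when any 1 library was left out (highest adjusted p 0.00475). As for LUM, LAMA4 entered the set of tested genes through its non-target libraries only, and those fits do not check its entry.

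The other alpha chains did not pass. LAMA5, the main alpha chain of adult epithelial basement membranes, stood at 11.8, 10.4 and 10.7 FPKM in non-target and 26.1, 15.05 and 10.7 FPKM in knockout (adjusted p = 0.268). Knockout replicates 1 and 2 were above every non-target library, and knockout replicate 3 was within the non-target range. LAMA2, the muscle and nerve alpha chain, stood at 8.36, 4.90 and 5.38 FPKM in non-target and 4.52, 3.32 and 2.05 FPKM in knockout (adjusted p = 0.0976), and its groups did not overlap. LAMB2 ran from 12.0 to 16.1 FPKM in non-target and from 11.0 to 21.8 FPKM in knockout (adjusted p = 0.829). LAMA1, LAMB4 and LAMC3 stayed under 0.1 FPKM in every library.

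Of the 6 tested collagens, 3 rose, 0 fell and 3 did not pass, and their median log2 fold change was 0.81. By limma at an unadjusted p below 0.05, 4 of the 6 passed, where 25.5% of all tested genes did, the fourth being COL27A1, which was also higher in knockout. The most abundant collagen was COL17A1, a transmembrane collagen of hemidesmosomes, at 27.5, 27.8 and 25.5 FPKM in non-target and 27.4, 33.7 and 27.3 FPKM in knockout. These values overlapped (log2 fold change 0.12 ± 0.16, SE, limma, adjusted p = 0.696).

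COL6A1 encodes a chain of type VI collagen, which forms beaded filaments around cells (chr21:47401684-47424964). It stood at 20.7, 12.2 and 12.9 FPKM in non-target and at 37.7, 28.8 and 32.8 FPKM in knockout. All knockout libraries were above all non-target libraries, of which replicate 1 was the highest. By limma the log2 fold change was 1.10 ± 0.22 (SE; adjusted p = 0.00996), and COL6A1 still passed when any 1 library was left out (highest adjusted p 0.0433).

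The partner chains of COL6A1 were nearly absent. COL6A2, whose span begins 93061 bases beyond that of COL6A1, was listed at 1.84 FPKM in non-target replicate 1 and 0.041 FPKM in knockout replicate 1, and at 0 in the other 4 libraries. COL6A3 stood at 1.14, 0.167 and 0.118 FPKM in non-target and 0.051, 0.059 and 0.027 FPKM in knockout. COL6A5 and COL6A6 stayed under 0.1 FPKM. COL6A1 transcript was thus far above that of every other type VI chain in all 6 libraries.

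COL13A1 encodes a second transmembrane collagen (chr10:71561636-71724031). It stood at 1.07, 0.127 and 0.215 FPKM in non-target and at 6.04, 1.53 and 2.18 FPKM in knockout. The groups did not overlap, and replicate 1 was the highest in each. By limma the log2 fold change was 1.44 ± 0.37 (SE; adjusted p = 0.0326). COL13A1 did not pass without non-target replicate 2 or 3 or knockout replicate 3 (adjusted p up to 0.114).

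COL18A1 encodes the basement membrane collagen from which endostatin is cut (chr21:46825080-46933634). It stood at 2.94, 1.34 and 1.27 FPKM in non-target and at 6.86, 3.37 and 4.58 FPKM in knockout, again without overlap. By limma the log2 fold change was 1.07 ± 0.28 (SE; adjusted p = 0.0356). It passed without non-target replicate 1, but not without any other single library (adjusted p up to 0.120). Its close relative COL15A1 was not tested, at 0.188 to 0.669 FPKM over the 6 libraries.

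COL27A1, a fibrillar collagen of cartilage, stood at 5.599, 3.87 and 3.91 FPKM in non-target and 7.24, 8.03 and 5.84 FPKM in knockout (log2 fold change 0.56, adjusted p = 0.102). Its groups did not overlap. COL12A1, which lies on the surface of fibrils, stood at 1.34, 0.363 and 0.360 FPKM in non-target and 1.64, 1.32 and 0.686 FPKM in knockout (adjusted p = 0.340).

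**Figure D3:**
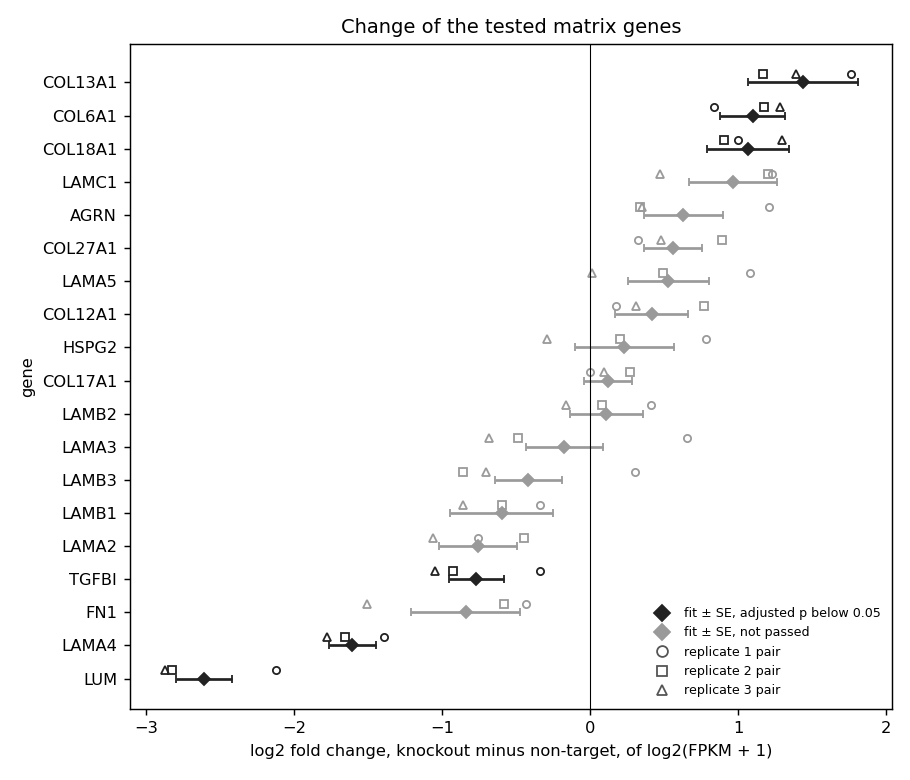
Log2 fold change, knockout minus non-target, on the log2(FPKM + 1) scale for the 19 tested matrix genes. Diamonds with bars are the fit ± SE (dark where adjusted p is below 0.05), and open markers are the differences between libraries of the same replicate number; LAMB3 and LAMA3 have their replicate 1 pair to the right of 0 and the other pairs to the left.

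Groups did not overlap in 9 of the 19 tested genes, 5 with knockout above and 4 with knockout below, where 32.1% of all tested genes had no overlap. The replicate 1 libraries moved with many of these results. Replicate 1 was the highest knockout library in 17 of the 19 tested matrix genes, against 31.2% of all tested genes, and the highest non-target library in 13 of the 19, against 51.9% of all tested genes. The FPKM of the 11 laminin chains summed to 126, 110.5 and 112 in non-target and to 171, 99.95 and 81.7 in knockout, so the summed levels overlapped and knockout replicate 1 set the highest value. With the replicate number as a block, 13 of 19 matrix genes passed, where 25.3% of all tested genes did. AGRN, LAMA5, LAMC1 and COL27A1 were then added as higher and FN1, LAMA2 and LAMB1 as lower. Only 2 degrees of freedom are left for the spread of a gene in that fit, and for 86.4% of genes the spread used was wholly that of other genes of similar level. Without both replicate 1 libraries 11 of 19 passed, where 17.4% of all tested genes did, and all 6 of the genes named above as changed were among them. When only knockout replicate 1 was left out, 9 of 19 passed, 2 as higher and 7 as lower. Of all 13092 tested genes 1970 passed in that fit. FN1, LAMA2, LAMB1 and LAMB3 were then added as lower, and COL18A1 was lost.

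The type I collagen genes were nearly silent except in 1 library. COL1A1 and COL1A2, the chains of type I collagen, stood at 6.60 and 6.12 FPKM in non-target replicate 1. In the other non-target libraries COL1A1 was at 0.290 and 0.223 FPKM, and in knockout at 0.171, 0.036 and 0.049 FPKM. COL1A2 was listed at 0.139 FPKM in knockout replicate 1 and at 0 in the other 4 libraries, where 1 fragment would be worth about 0.0074 to 0.0079 FPKM at the estimated depth. Non-target replicate 1 was also the highest for SPARC, a collagen-binding protein, at 1.44 FPKM against 0.038 to 0.113 FPKM in the other 5 libraries. It was the highest of the 6 libraries for 21 of the 42 untested matrix genes, against 24.6% of the 9392 untested genes above 0 in at least 1 library.

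Most fibroblast markers were also highest in non-target replicate 1, 8 of the 10 on the list, the exceptions being POSTN and PRRX1. POSTN, periostin, stood at 0.147, 0.063 and 0.042 FPKM in non-target and 0.169, 0.108 and 0.132 FPKM in knockout. DCN, CXCL12, PDGFRA and TWIST1 stood at 0.467, 0.323, 0.183 and 0.117 FPKM in non-target replicate 1. They were at 0 in replicates 2 and 3 of both groups and at 0 to 0.022 FPKM in knockout replicate 1. THY1 stood at 1.28 FPKM in non-target replicate 1 and at 0 to 0.026 FPKM in the other 5 libraries. The full list of 10 stromal markers, all listed in at least 1 library, summed to 26.8 to 33.5 FPKM in non-target and 7.63 to 8.20 FPKM in knockout, most of it PRRX1 and ACTA2. The other 8, a division made after seeing the values, summed to 2.75 FPKM in non-target replicate 1 and to 0.072 to 0.226 FPKM in the other 5 libraries. In bulk RNA, fewer cells of a type and less RNA per cell cannot be told apart, and the part of other cells in the levels of this library was not tested. The level of LUM was lower in non-target replicate 1 than in the other non-target libraries. Without non-target replicate 1 the same 6 matrix genes passed. The controls left in that fit were the nearly alike replicates 2 and 3, and it does not test the part of other cells.

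**Figure D4:**
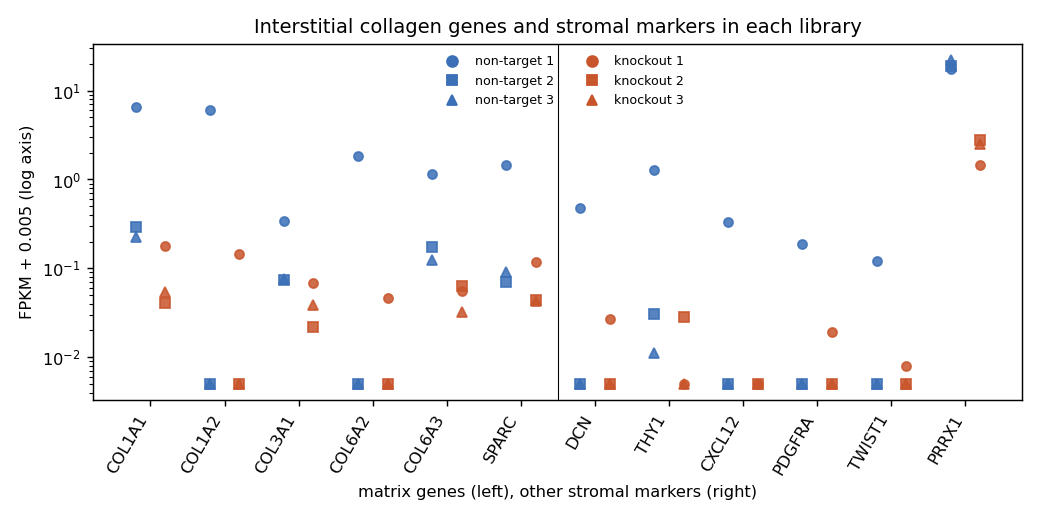
FPKM plus an offset of 0.005 (log axis) in each library for 6 matrix genes of connective tissue (left of the line) and 6 other stromal markers (right), with non-target in blue, knockout in orange and a marker shape per replicate number. Points at the bottom are listed at 0 and may coincide. Non-target replicate 1 lies highest for 11 of the 12 genes, PRRX1 being the exception. The 12 genes were picked with the values known, so this count is not a result about stromal genes. POSTN and LUM, not shown, were highest in other libraries.

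Other untested collagens differed between groups at low levels, which are given here without a test, as these genes were not in the main fit. COL5A2, a chain of type V collagen, stood at 1.76, 0.859 and 0.802 FPKM in non-target and 0.042, 0.078 and 0.053 FPKM in knockout. COL8A2 and COL9A3 were also lower in every knockout library, at 0.524 to 0.744 against 0.150 to 0.177 FPKM and at 0.616 to 0.766 against 0.058 to 0.237 FPKM. In all, 7 untested genes lay lower in every knockout library (with COL1A1, COL3A1, COL6A3 and COL28A1) and 4 lay higher (COL4A4, COL4A5, COL26A1 and LAMC3), all of the latter under 1 FPKM. Of the 9392 untested genes above 0 in at least 1 library, 14.4% lay lower and 6.04% higher in every knockout library, so the counts of 7 and 4 out of 42 do not set the matrix genes apart. COL7A1, the collagen of anchoring fibrils, reached 0.647 to 0.709 FPKM in non-target and 0.564 to 1.04 FPKM in knockout, and COL16A1 0.193 to 0.610 and 0.419 to 0.956 FPKM. COL5A1, COL8A1, COL9A2 and COL21A1 had their highest values at 0.202, 0.185, 0.208 and 0.117 FPKM. COL2A1, COL5A3, COL9A1, COL10A1, COL11A1, COL11A2, COL14A1, COL19A1, COL20A1, COL23A1, COL24A1 and COL26A1 stayed under 0.1 FPKM in every library.

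Type IV collagen, the sheet former of basement membranes, was scarce and its paired genes were unequal. COL4A2 stood at 1.23, 0.555 and 0.627 FPKM in non-target and at 1.02, 0.543 and 0.675 FPKM in knockout, so the groups overlapped. COL4A1, its usual partner in the trimer, was listed at 0.007 FPKM in 3 libraries and at 0 in the other 3. At the estimated depth 1 fragment is worth 0.0068 to 0.0072 FPKM for the longest COL4A1 transcript, so these levels correspond to about 1 fragment. The start sites of the pair lie 126 bases apart, and the stretch between them is the fourth sequence shown above. It held 1 GC box in the letters searched. How fragments were assigned in this region, where the annotated spans of the pair overlap, was not stated in the labels or files.

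The other type IV pairs also begin head to head, with 418 bases between the start sites of COL4A4 and COL4A3 and 379 between those of COL4A6 and COL4A5. COL4A4 stood at 0.488, 0.350 and 0.360 FPKM in non-target and 0.712, 0.633 and 0.492 FPKM in knockout, and COL4A3 at 0.132, 0.046 and 0.051 against 0.246, 0.097 and 0.071 FPKM. COL4A5 stood at 0.041, 0.015 and 0.050 FPKM in non-target and 0.169, 0.286 and 0.147 FPKM in knockout, while COL4A6 stayed under 0.1 FPKM. All 4 of these genes were too low for the test.

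Genes that process, bind or cut the matrix were taken from 4 lists, of which 106 genes were tested. Of these, 28 rose, 8 fell and 70 did not pass, where 6.26% of all tested genes rose and 5.93% fell. The lists were chosen with results known, and 5 of the genes called (ADAMTS14, FKBP10, MMP7, PLAT and CTSS) reached 1 FPKM in 1 group only. In collagen processing 23 genes were tested, of which 6 rose, 1 fell and 16 missed the threshold. The median log2 fold change was 0.35. P4HA2, a subunit of the enzyme that hydroxylates collagen prolines, went from 16.1 ± 4.59 to 40.0 ± 11.0 FPKM (SD, n = 3; limma, adjusted p = 0.00799). P3H3, of the prolyl hydroxylase family that also modifies collagen, went from 3.42 ± 1.02 to 10.2 ± 1.58 FPKM (limma, adjusted p = 0.00243). KDELR3, a retrieval receptor of the early secretory pathway, went from 20.2 ± 1.81 to 48.4 ± 5.996 FPKM (limma, adjusted p = 0.00114). The gene that fell was FKBP10, a collagen chaperone, from 2.52 ± 0.262 to 0.411 ± 0.0924 FPKM (limma, adjusted p = 0.000421). FKBP10 reached 1 FPKM in non-target only and so could enter the test only by differing.

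Of 22 tested matrix receptors, 5 rose, 2 fell and 15 did not pass, and the median log2 fold change was -0.03. BCAM, a receptor for the LAMA5 chain, stood at 12.5, 5.70 and 6.97 FPKM in non-target and 41.3, 29.7 and 34.2 FPKM in knockout (log2 fold change 1.99, limma, adjusted p = 0.000933). All knockout values were above all non-target values. The hyaluronan receptor CD44 and the heparan sulfate proteoglycan SDC4 had log2 fold changes of 1.49 and 0.91. CD36, a scavenger receptor that binds collagen and thrombospondin, went from 11.8 ± 2.64 to 1.27 ± 0.446 FPKM (SD, n = 3; limma, adjusted p = 0.000144).

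Among matrix proteases and their inhibitors, 9 of 32 tested genes rose, 3 fell and 20 did not pass, with a median of 0.34. The metalloproteinase inhibitors TIMP3 and TIMP2 were among those that rose. TIMP3 stood at 18.6, 5.84 and 6.79 FPKM in non-target and 56.8, 41.4 and 42.3 FPKM in knockout (log2 fold change 2.22, limma, adjusted p = 0.00297). TIMP2 stood at 15.1, 7.23 and 7.68 FPKM in non-target and 46.9, 36.7 and 36.03 FPKM in knockout (log2 fold change 1.95, limma, adjusted p = 0.00104). Replicate 1 was the highest library of each group for both inhibitors. PLAT, tissue plasminogen activator, went from 0.394 ± 0.250 to 6.28 ± 1.33 FPKM (SD, n = 3; limma, adjusted p = 0.000110). The lysosomal protease CTSS went from 4.52 ± 0.168 to 0.191 ± 0.05003 FPKM (limma, adjusted p = 3.63e-05).

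Of 29 tested glycoproteins and proteoglycans outside the matrix genes described above, 8 rose, 2 fell and 19 did not pass, with a median of 0.50. LTBP3 and LTBP2 belong to the family of latent TGF-beta binding proteins. LTBP3 stood at 6.56, 4.67 and 5.45 FPKM in non-target and 20.9, 20.2 and 23.7 FPKM in knockout (log2 fold change 1.79, limma, adjusted p = 0.000169). LTBP2 went from 0.943 ± 0.754 to 5.33 ± 1.35 FPKM (SD, n = 3; limma, adjusted p = 0.00276). MFGE8, a secreted integrin ligand, and CCN1, a matricellular protein, had log2 fold changes of 1.71 and 1.37.

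**Figure D5:**
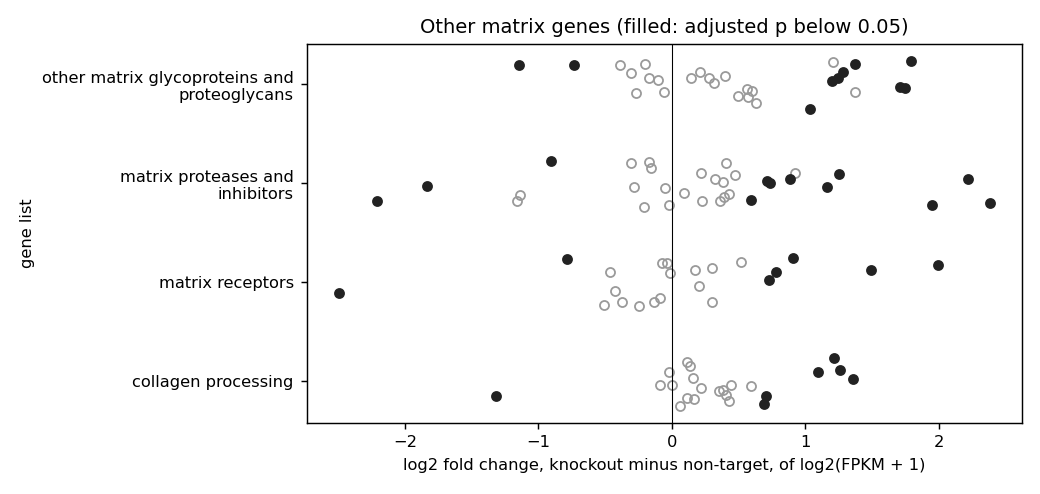
Log2 fold change, knockout minus non-target, on the log2(FPKM + 1) scale for the 106 tested genes of 4 matrix lists, 1 point per gene, with vertical scatter for display only. Filled points have an adjusted p below 0.05: 28 lie to the right of 0 and 8 to the left.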

How the data were processed

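The deposited values are FPKM per gene symbol, computed by the authors with STAR 2.7.10b after alignment with TopHat2 2.1.1 to hg19 with UCSC annotation, per the submitters' processing notes. The strand setting and the treatment of shared fragments are not given in the sources used here. Symbols missing from a library were set to 0. Genes at 1 FPKM or more in at least 3 of 6 libraries were tested with limma 3.58.1 in R 4.3.3 on log2(FPKM + 1), with robust empirical Bayes and a trend on intensity, two-sided, with Benjamini-Hochberg adjustment over all tested genes. The pseudocount of 1 understates the change of low genes. Library depth was estimated from the smallest steps of FPKM times length in genes with 1 annotated transcript (74 to 103 of 628 to 740 low values per library lay on the step), so it is approximate and no count test was run. Gene spans come from the GENCODE annotation of GRCh37.

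Members and lists were chosen with earlier results of these data known. The symbol rule takes 1 further gene, which stayed in the fit and is not reported here. Named genes are SHARPIN, the tested members past the threshold, the 8 most abundant tested members, up to 4 genes with the largest change per list, the untested members with the highest values, neighbouring pairs, and other members where their class is described.

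The groups share replicate numbers. Deviations from the group means correlated at 0.547, 0.309 and 0.331 between same-numbered libraries. Across numbers, replicates 2 and 3 correlated at 0.320 and 0.321. The values thus show a pattern shared by the replicate 1 libraries but do not tell replicates 2 and 3 apart. The main fit used no pairing, and the replicate block was run beside it. On data simulated for this comparison with 13092 genes, of which 200 were changed, the test recovered 82.6% of 2-fold and 99.4% of 4-fold changes, and 6.12% of its calls were unchanged genes (mean of 5 simulations). The changes were placed only in genes of higher mean level, above that of LUM, LAMA4, COL13A1 and COL18A1. The simulated libraries had independent noise, unlike the libraries here, which share replicate patterns. These rates therefore do not carry over to low genes or to the error of the calls above.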

Additional observations from a re-analysis of the deposited data

How the results depend on the processing

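The count of 6 changed matrix genes was 2 with a mean of at least 5 FPKM (where only 11 matrix genes were tested), 13 with a replicate block, 3 with non-target replicates 2 and 3 averaged as 1 sample, 11 without both replicate 1 libraries (chosen after seeing the data), and 3 to 9 when each library was left out, with the lowest counts without non-target replicate 2 or 3. For all genes, 1597 became 865, 3309 and 944 under the first 3 of these settings and 911 to 1970 when each library was left out. The 36 calls among other matrix genes became 25 to 41 when each library was left out. Of all calls 51.3% rose, against 39.9% with no filter. The median log2 fold change of the 19 genes was 0.12, -0.17 to 0.30 when each library was left out (negative only without knockout replicate 1) and -0.043 without both replicate 1 libraries. With no filter 9 matrix genes passed, where 1773 of 22484 genes did, among them 4 of the 6, without COL13A1 and COL18A1. The others were COL5A2, COL8A2, COL9A3 and COL28A1, lower in knockout, and COL4A5, higher in knockout, all at the low levels given above or lower. TPM scaling lost COL18A1 (adjusted p = 0.0646). The log2 fold change of LAMB2 turned from 0.11 to -0.043 without both replicate 1 libraries and was -0.17 to 0.30 when each library was left out. That of SHARPIN turned from -0.12 to 0.12, with -0.41 to 0.17 when each library was left out. None of these passed the threshold. Of 485 values of 29 named genes under other settings, 454 kept direction and call. The replicate block kept all 6 changed matrix genes and added those named with it above. Levels near 1 fragment cannot be ranked at this depth.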

Other observations

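A stromal transcription factor moved with genotype rather than with non-target replicate 1. PRRX1, known from mesenchymal cells, stood at 17.7, 19.0 and 22.0 FPKM in non-target and at 1.44, 2.78 and 2.53 FPKM in knockout (log2 fold change -2.68 ± 0.21, SE, limma, adjusted p = 7.26e-05). DCN, CXCL12, PDGFRA and TWIST1 stood at 0 in non-target replicates 2 and 3, where PRRX1 was highest. PDGFRB, THY1 and POSTN were at 0.006 to 0.069 FPKM in those libraries, and FAP was at 0.017 and 0 FPKM. Which cells held the PRRX1 transcript was not tested. ACTA2, smooth muscle actin, stood at 13.1, 7.63 and 8.74 FPKM in non-target and 6.54, 4.70 and 5.35 FPKM in knockout, and did not pass (limma, adjusted p = 0.0688).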
